A study of Mus musculus with 12 samples.

Results

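Chromatin accessibility was compared between mature medullary thymic epithelial cells that lack Aire and those of the wild types that go with them. The comparison used 4 of the 12 ATAC-seq libraries of the series: 2 from Aire -/- mice and 2 from Aire +/+ mice, all C57BL/6, 4 to 7 weeks of age. They were chosen as the knockout pair and the wild-type pair whose titles share the same form, and this matching is an assumption. All 4 were made from sorted mTEChi of thymi digested with Liberase TH and DNase, and their labels describe nucleosome-free chromatin. The other 8 libraries come from mice heterozygous for the AIRE changes C313Y and C442G and from further wild types. Nothing in the labels says that the 2 libraries of a group came from separate animals, so the spread between them may be technical. They do not say either which piece of Aire was removed in the knockout.

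AIRE is a nuclear protein of mature medullary epithelial cells. It drives scattered transcription of genes that otherwise belong to peripheral tissues, so that developing T cells meet those products in the thymus and self-reactive clones are deleted or diverted. It binds to histone tails and works with partner proteins at genes whose chromatin is often closed, and mice and humans without it develop autoimmunity in many organs. ATAC-seq uses a transposase that inserts into open DNA, and a peak is a stretch where insertions pile up.

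The data were 1 list of peaks per library. Each peak carried the fold enrichment and the −log10 p and −log10 q of the authors' peak caller. These are the authors' own values and are used here only to describe or rank peaks within a list, with rank 1 the strongest. Peaks of the 4 lists on chromosomes 1 to 19 and X that overlapped by at least 1 bp were joined into regions. A region was called gained when both knockouts and neither wild type had a peak in it, and lost in the reverse case. The calls were made once with all peaks and once with the 34000 strongest peaks of each list. Read counts were not used, so depth is unknown and a missing peak means that none was called.

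The knockout lists were far longer than the wild-type lists. Knockout 1 held 85826 peaks and knockout 2 held 94976, against 34715 in wild type 1 and 34047 in wild type 2. The means were 90401 ± 6470 (SD, n = 2) and 34381 ± 472 (SD, n = 2), a ratio of 2.63, and the groups did not overlap. Covered length followed, with 17.6 and 20.1 Mb in the knockouts and 7.04 and 7.30 Mb in the wild types. The median peak width differed by less than the spread between libraries, 141 and 148 bp in the knockouts and 138 and 153 bp in the wild types. Of the knockout peaks, 17.5% and 16.8% lay within 1000 bp of an annotated end of a protein-coding gene, against 32.2% and 32.7% of the wild-type peaks. For peak number, covered length and this share the exact two-sided permutation test gave p = 0.33, the smallest that 2 libraries against 2 allow (adjusted p = 0.444 over 4 measures, Benjamini-Hochberg). For median width the same exact permutation test gave p = 1.0. The difference in position shrank from −15.3 to −1.94 percentage points when each list was reduced to its 34000 strongest peaks, where the shares were 30.6% and 30.7% in the knockouts and 32.5% and 32.7% in the wild types. At that length the lists were not equal in other respects. The weakest kept peak had a −log10 q of 3.52 and 4.31 in the knockouts but 1.16 and 1.03 in the wild types, and the kept knockout peaks were wider (medians 195 and 214.5 bp against 138 and 153 bp).

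**Figure D1:**
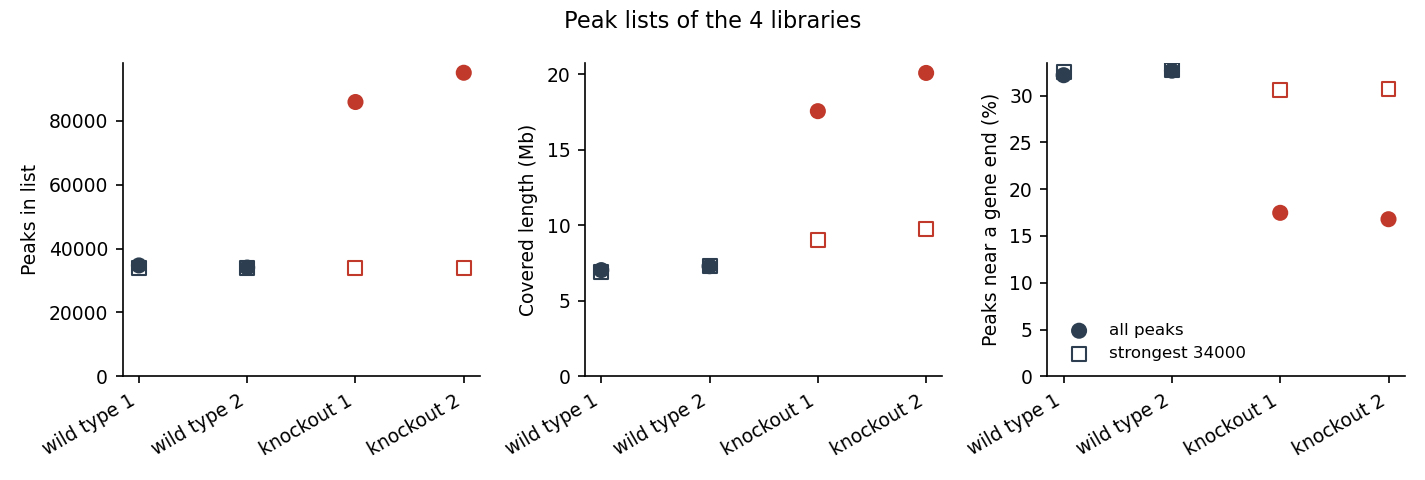
Number of peaks, covered length in Mb and percentage of peaks within 1000 bp of a gene end (y axes, starting at 0) for each of the 4 libraries (x axis). Filled circles show all peaks and open squares the 34000 strongest. With all peaks the knockouts stand at 85826 and 94976 peaks against 34715 and 34047, and the gap in position between the groups nearly closes at equal list length.

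Markers are given before the results, though their lists were chosen with earlier results of these data known. Epcam and Krt8 of epithelial cells, Cd40 and Tnfrsf11a (RANK), which relay the signals that mature these cells, and the repressor Prdm1 had a peak near a gene end in all 4 libraries. The medullary keratin gene Krt5, the costimulator gene Cd80, Ccl19, Ccl21a and Pax9 had none in any of them. Krt14 and Foxn1 had a peak in knockout 2 only. Over the whole list of 20 medullary identity genes, 12 and 14 had a peak in the knockouts and 10 and 11 in the wild types. On average that was 65.0% of the list in the knockouts and 52.5% in the wild types, against 62.2% and 51.6% of all genes. Of 16 thymocyte and T cell genes, 5 and 3 had a peak in the knockouts and 1 and 1 in the wild types, and 9 had none in any library, among them Cd3e, Cd8a, Lck, Rag1 and Rag2. Cd4 and Lat had a peak in both knockouts and neither wild type (folds 4.13 and 3.29 at Cd4, 3.37 and 3.68 at Lat). Cd3d, Cd3g and Dntt had a peak in 1 knockout only, Ptcra in 1 wild type only and Cd8b1 in 1 library of each group. Of 14 dendritic cell and macrophage genes, 8 and 8 had a peak in the knockouts against 4 and 3. Among these, Spi1 (PU.1), the chemokine receptor Xcr1 and the growth factor receptor Flt3 had peaks in all 4 libraries, while Ptprc (CD45) and Itgax (CD11c) had none. In bulk libraries a peak present in few cells and a weak peak present in many cannot be told apart. Whether cells other than mTEChi contributed to the calls below was not tested. Peaks on the Y chromosome, which was not analysed further, numbered 2 and 21 in the knockouts and 2 and 9 in the wild types, so both libraries numbered 2 had more.

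Aire itself, on the minus strand of chromosome 10, was open at its start in every library. The region chr10:78043452-78043805 covers the start of transcription and had folds of 5.95 and 5.99 in the knockouts and 4.19 and 4.29 in the wild types. About 3010 bp upstream, chr10:78046223-78047018 held peaks 521 and 796 bp wide in the knockouts and 235 and 310 bp wide in the wild types. Its −log10 q was 4.41 and 6.26 against 1.80 and 2.57. No region inside the gene body away from the start had a peak in more than 1 of the 4 libraries. The lists therefore give no check of the deletion. Around Aire, shares were set beside those of the genome. Of 848 regions within 5 Mb of it, 166 (19.6%) were gained and 0 lost, against 20.1% and 0.0839% of all regions. With the 34000 strongest peaks of each list 20 of 444 (4.50%) were gained and 9 (2.03%) lost, against 6.56% and 2.89% of all regions.

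With all peaks, gains outnumbered losses by far. The 4 lists gave 127478 regions, of which 25625 (20.1%) were gained, 107 (0.0839%) were lost and 21221 had a peak in all 4 libraries. A further 23849 regions were seen only in knockout 1 and 31965 only in knockout 2, and 4808 were seen only in wild type 1 and 3310 only in wild type 2. Of 21646 regions found in both wild types, 98.0% had a peak in both knockouts and 99.5% in at least 1 of them. In the other direction, 35.3% of the 60200 regions found in both knockouts were in both wild types. Counted by peaks and not by length, 81.9% to 88.0% of a wild type's peaks overlapped a peak of a knockout by at least 1 bp.

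Gained regions were weak members of the knockout lists. Their median fold was 3.98 in knockout 1 and 4.17 in knockout 2, and their median rank 46705 of 85826 and 48809 of 94976. Only 319 and 268 of the 25625 were among the 10000 strongest peaks of their list (1.24% and 1.05%). By contrast, 41.3% and 42.0% of the shared regions were. Their position differed as well: 7.90% of gained regions lay near a gene end, 50.3% elsewhere in a gene and 41.8% between genes. Of shared regions 44.8% lay near a gene end. The median distance to an annotated start of transcription was 22.5 kb for gained, 18.1 kb for lost and 4.38 kb for shared regions. Gained regions were found to differing extents in other wild types. In the 2 wild types of the C442G set, whose lists were as long as those of the knockouts (93659 and 94458 peaks), 74.1% and 75.6% of gained regions had a peak. In the 2 wild types of the C313Y set, with 73976 and 55861 peaks, 35.3% and 34.6% did. All 4 of these wild types had a peak in 4697 gained regions (18.3%), and none of them in 3348 (13.1%).

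With the 34000 strongest peaks of each list the balance changed. Of 57553 regions, 3778 (6.56%) were gained, 1663 (2.89%) were lost and 17528 were shared. This order rested on both wild types: without wild type 1 there were 6337 gained and 8830 lost regions, and without wild type 2 there were 6591 and 9488. The difference between the settings lay in what the other list held below rank 34000. Of the 3778 gained regions, 3751 (99.3%) had no peak in the full lists of these 2 wild types either, which barely extend past 34000. Most had one in other wild types: 93.0% and 94.7% in the full lists of the C442G set, 53.4% and 55.1% in those of the C313Y set. Only 74 gained regions (1.96%) and 46 lost regions (2.77%) had no peak in any of these other wild types. Of the 1663 lost regions, only 98 (5.89%) had no peak in the full knockout lists. The lost regions had a peak further down those lists in 82.9% of cases for knockout 1 and 90.6% for knockout 2, at median ranks of 46187 and 47732. At every length tried from 1000 to 34000 the numbers gained and lost were of the same order. The 1000 strongest peaks gave 101 gained and 102 lost, the 5000 strongest 359 and 289, the 10000 strongest 736 and 581, and the 20000 strongest 1671 and 1104. At 10000 peaks 67 gained and 3 lost regions were absent from the full lists of the other group, and at 5000 peaks 3 and 1 were.

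**Figure D2:**
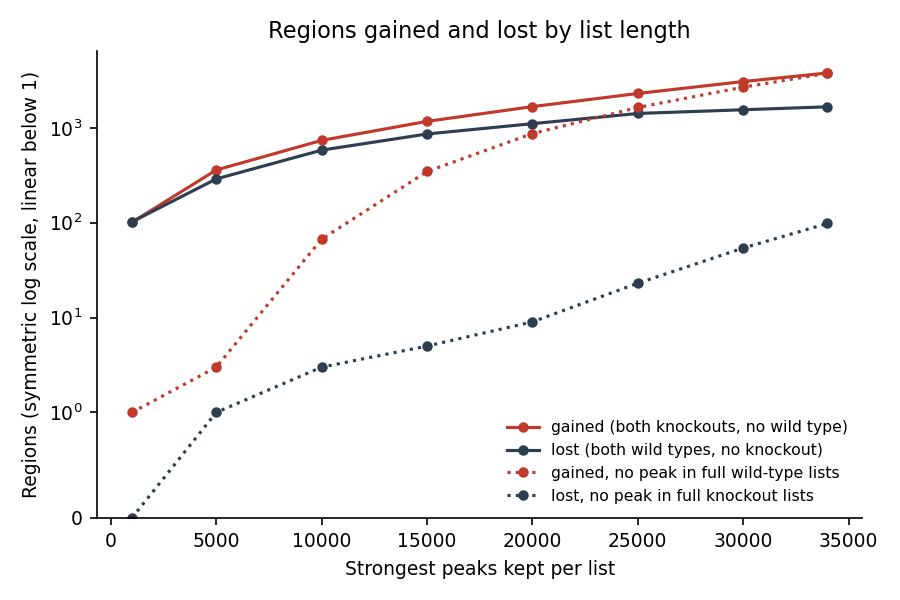
Regions gained and lost (y axis, symmetric log scale, linear below 1) against the number of strongest peaks kept in each list (x axis). Solid lines show calls at that length and dotted lines those with no peak anywhere in the full lists of the other group. Gained and lost run close together up to about 10000 peaks (736 and 581), and gained regions with no wild-type peak at all number 67 of 736 at 10000 peaks, 869 of 1671 at 20000 and 3751 of 3778 at 34000.

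At equal list length the 2 wild types overlapped each other no more than they overlapped the knockouts. The Jaccard index is the shared length of 2 lists over their joint length. With the 34000 strongest peaks it was 0.573 between the knockouts, 0.4255 between the wild types and 0.419 to 0.442 between a knockout and a wild type. With all peaks it was 0.451, 0.423 and 0.270 to 0.309. At equal length 8.26% of gained regions lay near a gene end, 47.7% elsewhere in a gene and 44.0% between genes, while lost regions were near an end in 23.3% of cases and shared regions in 49.0%.

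**Figure D3:**
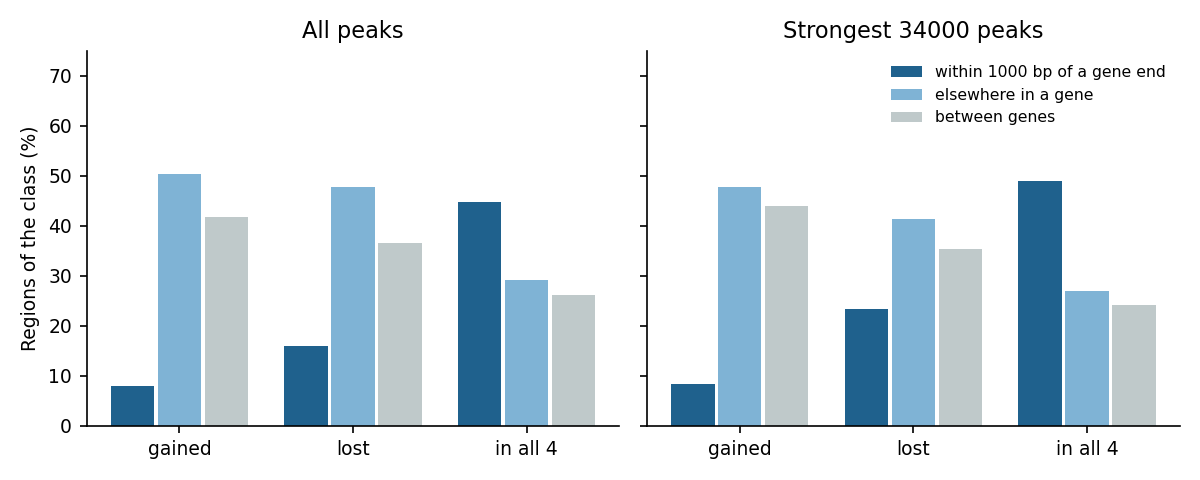
Percentage of gained, lost and shared regions (x axis groups) that lie within 1000 bp of a gene end, elsewhere in a gene or between genes (bars, y axis from 0), for all peaks and for the 34000 strongest. The dark bars, near a gene end, stand at 7.90%, 15.9% and 44.8% on the left for gained, lost and shared, and at 8.26%, 23.3% and 49.0% on the right.

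The gained region of highest rank stood apart from all others. It was 68 bp wide, at chr2:90395131-90395198, 5441 bp from the olfactory receptor gene Olfr1274, with the same bounds in both knockout lists. Its folds were 18.5 and 24.0 and its ranks 201 and 107, and no other gained region was among the 1000 strongest peaks of either list. None of the 4 other wild types and none of the 4 C313Y or C442G libraries had a peak there. The next in rank were all of lower fold and mostly known to other wild types. The region at the start of Pnpla6, chr8:3515286-3515423, had folds of 9.74 and 10.4, one 33601 bp from Dennd2d (chr3:106448700-106448829) had 10.9 and 12.2, and one inside Map4k4 (chr1:39911655-39911764) had 10.4 and 11.4. Regions at chr2:114853993-114854120 (nearest protein-coding gene Dph6) and chr7:136489088-136489217 (405245 bp from Mgmt) followed. These 5 had a peak in all 4 other wild types and all 4 mutant libraries.

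The lost regions of highest rank had lower folds, but shared peaks too had lower folds in the wild types. With all peaks the first was chrX:4899368-4899443, 52691 bp from Btbd35f27. It had folds of 8.55 and 8.09 at ranks 1653 and 2921 in the wild types. A peak was there in 4 of the other 4 wild types and 3 of the 4 mutant libraries. The second, chr10:58233513-58233599, lay 423 bp from Duxf3, a gene of the repeated Dux cluster, with folds of 5.56 and 7.88. Of the next 5, 3 lay inside Sfi1, a centrosome gene (chr11:3162414-3162752, chr11:3138472-3138619 and chr11:3161554-3161659, folds 4.56 to 5.50), and the others inside Cacna2d1 and 13402 bp from Tex44. With the 34000 strongest peaks the region of second rank was chr9:123872998-123873109, 10968 bp from Xcr1, with folds of 8.33 and 6.79. It had a peak in all 8 other libraries. A region inside Crybg3 (chr16:59549777-59549922, folds 6.23 and 6.63) had a peak in none of them. Duxf3 and Sfi1 lie among near-identical copies, where short reads can be placed wrongly. Whether that bears on their calls was not tested, and the calls are uncertain.

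At the level of genes, 1128 of 21631 protein-coding genes (5.21%) had a peak within 1000 bp of either annotated end in both knockouts and in neither wild type, and 6 (0.0277%) showed the reverse. At equal length, with 34000 peaks each, 169 genes (0.781%) were gained and 336 (1.55%) were lost, so the larger class changed sides. Of the 336 lost genes, 306 (91.1%) had a peak in both full knockout lists and 6 in neither. None of the 169 gained genes had a peak within 1000 bp of an end in the full wild-type lists. Those lists barely extend past 34000 peaks, so this was nearly fixed in advance and is no counterpart to the 91.1%. Within the gene body, 77 of the 169 (45.6%) had a peak of at least 1 wild type at equal length. Of the 336 lost genes, 180 (53.6%) had a knockout peak there.

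Several of the gained genes with the strongest peaks turned on where the 1000 bp limit fell. S1pr4, a receptor for sphingosine-1-phosphate, ranked first of all gained genes. Its knockout peaks, 511 and 502 bp wide with folds of 10.3 and 12.1, began 908 and 927 bp beyond the gene end and so came inside the limit. Both wild types had a peak on the same spot, with folds of 5.97 and 6.30 and ranks 4914 and 4643, which began 1146 and 1138 bp from that end and so fell outside it. The same held at Slc27a1, a fatty acid transporter, where the knockout peaks (folds 6.98 and 7.40) reached to 797 and 795 bp from the gene end and the wild-type peaks (folds 5.41 and 5.82) to 1036 and 1099 bp. At Tmprss9, a serine protease gene, they reached to 890 and 856 bp in the knockouts and 1243 and 1273 bp in the wild types, where the peak in wild type 2 had rank 1790. At Elovl1, which lengthens fatty acid chains, the distances were 987 and 993 bp against 1048 and 1033 bp. Rnf212, which acts in meiotic recombination, was decided by a few bases: 982 and 992 bp in the knockouts and 1007 bp in wild type 1, where the peak had a fold of 9.30 and rank 1081. Wild type 2 had no peak there. In these 5 genes at least 1 wild type thus had a peak in the merged region, and the region was not gained. They make up 5 of the 12 gained genes of highest rank. Over all gained genes the same was true of 37 of 1128 (3.28%), and of 18 of 169 (10.7%) with the 34000 strongest peaks. It was true of 0 of the 6 and 0 of the 336 lost genes.

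**Figure D4:**
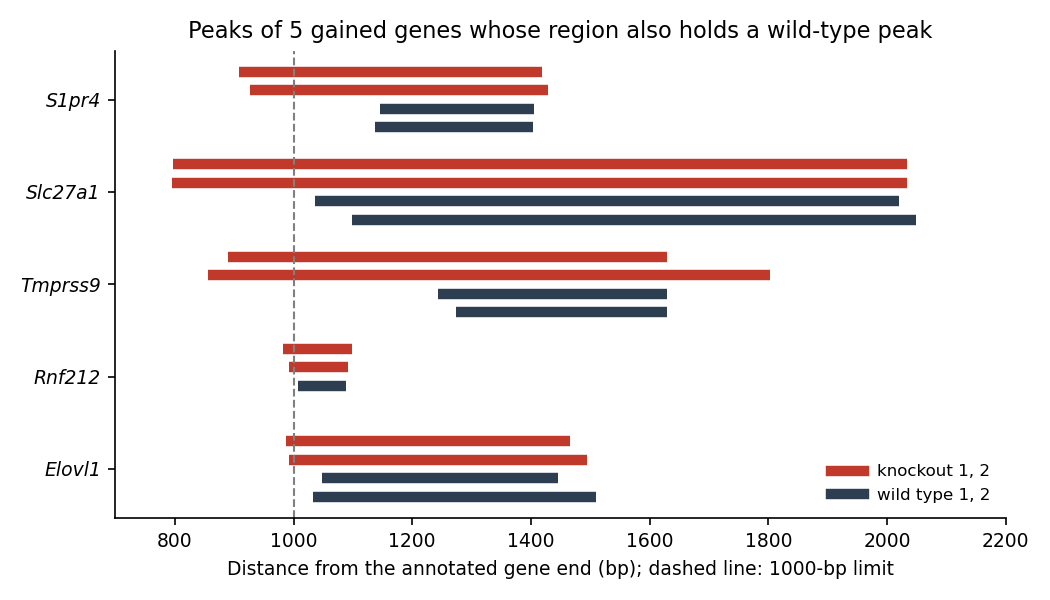
Extent of the peaks of knockouts 1 and 2 (red) and wild types 1 and 2 (dark) at 5 gained genes, as distance in bp from the nearer annotated gene end (x axis); the dashed line is the 1000 bp limit. Every knockout bar crosses the limit and every wild-type bar starts beyond it, for example 908 and 927 bp against 1146 and 1138 bp at S1pr4; wild type 2 has no bar at Rnf212.

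Other gained genes of high rank had no wild-type peak in the region. They were Pnpla6, a lysophospholipase, the transcription factor gene Sp2, the zinc finger gene Zfp952, Tex9, Gm536, Gm11543, Sec31b of the vesicle coat, and Trappc3l. All of them except Trappc3l also had a peak in all 4 other wild types and all 4 C313Y and C442G libraries. Trappc3l had one in 3 and 3 of these. Sp2 had folds of 7.29 and 7.28 (ranks 5279 and 6360) and Zfp952 folds of 8.54 and 9.78 (ranks 8639 and 7956). Pnpla6 and Sp2 each have 3 starts in the RefSeq table. Peaks lay within 1000 bp of all 3 Pnpla6 starts in the knockouts and of 2 in the wild types, and of 2 Sp2 starts in the knockouts and 1 in the wild types. The calls there thus concern 1 start of a gene that was open at another start in all 4 libraries. Of the 870 gained genes with a start in that table, 75 (8.62%) had a peak near a start in both wild types. Anywhere in the gene body, 523 of the 1128 gained genes (46.4%) had a peak in at least 1 wild type and 335 (29.7%) in both. All 6 genes lost with all peaks had one there in at least 1 knockout. The strongest peak of both knockouts lay within 1000 bp of a start in 541 of the 870 (62.2%). At Tex9 it was 33455 and 33450 bp from the start. With the 34000 strongest peaks the share at a start was 77 of 133 (57.9%) among gained genes and 217 of 259 (83.8%) among lost genes.

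The 6 genes lost with all peaks had weak wild-type peaks. The glycine receptor subunit gene Glrb had folds of 3.90 and 4.18 at ranks 24293 and 21245, the receptor kinase gene Ephb2 3.64 and 4.01, the caldesmon gene Cald1 3.54 and 4.27, the cation channel gene Trpv3 4.06 and 3.59 and the germ cell gene Zfp541 3.50 and 3.82. At Glrb and Zfp541 the peaks of the wild types lay near each other but did not overlap, so no region was lost there. At Trpv3 the strongest peak of wild type 1 stood alone, and a weaker one over the start (fold 3.75, rank 27568) overlapped that of wild type 2. Glrb, Cald1 and Trpv3 had a peak in all 8 other libraries and Zfp541 in none. Of the 2 starts of Cald1, both knockouts had a peak near 1 and both wild types near both. At equal length the lost genes of highest rank included Ccl9, a chemokine gene, Cavin1, which shapes caveolae (folds 4.64 and 6.12, ranks 15004 and 6832), Bnip1, Zfp455, the hedgehog antagonist Hhip, Nfix and B3gnt5.

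The sequences below are the starts at which the strongest gained promoter calls and 2 of the lost calls were made, with Aire for comparison. They are 300-base windows from RefSeq on GRCm38.p6, from 250 bases before the start of transcription to 50 after it, on the strand of the gene. Capitals mark the bases covered by a peak in both libraries of the group that had the call, and for Aire in all 4.
Pnpla6, gained, chr8:3515161-3515460, plus strand: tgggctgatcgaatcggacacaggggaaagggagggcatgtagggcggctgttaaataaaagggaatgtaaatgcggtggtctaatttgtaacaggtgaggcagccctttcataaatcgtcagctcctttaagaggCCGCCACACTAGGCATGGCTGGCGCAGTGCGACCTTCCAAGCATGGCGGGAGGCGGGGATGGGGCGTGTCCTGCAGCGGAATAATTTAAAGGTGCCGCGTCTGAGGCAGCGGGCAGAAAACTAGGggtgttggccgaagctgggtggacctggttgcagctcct
Zfp952, gained, chr17:32992889-32993188, plus strand: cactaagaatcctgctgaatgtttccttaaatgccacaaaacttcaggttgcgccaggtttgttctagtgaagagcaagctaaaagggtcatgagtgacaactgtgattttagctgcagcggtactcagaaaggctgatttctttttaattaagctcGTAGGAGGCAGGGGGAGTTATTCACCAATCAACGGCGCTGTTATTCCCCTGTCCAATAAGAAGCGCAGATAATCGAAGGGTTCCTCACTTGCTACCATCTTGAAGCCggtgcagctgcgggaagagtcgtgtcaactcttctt
Cald1, lost, chr6:34598254-34598553, plus strand: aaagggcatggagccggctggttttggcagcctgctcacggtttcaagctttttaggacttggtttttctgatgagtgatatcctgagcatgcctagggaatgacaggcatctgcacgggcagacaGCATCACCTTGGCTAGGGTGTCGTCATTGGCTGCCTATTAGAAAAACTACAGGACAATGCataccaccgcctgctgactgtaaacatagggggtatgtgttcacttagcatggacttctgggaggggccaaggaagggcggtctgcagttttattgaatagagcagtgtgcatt
Trpv3, lost, chr11:73267270-73267569, plus strand: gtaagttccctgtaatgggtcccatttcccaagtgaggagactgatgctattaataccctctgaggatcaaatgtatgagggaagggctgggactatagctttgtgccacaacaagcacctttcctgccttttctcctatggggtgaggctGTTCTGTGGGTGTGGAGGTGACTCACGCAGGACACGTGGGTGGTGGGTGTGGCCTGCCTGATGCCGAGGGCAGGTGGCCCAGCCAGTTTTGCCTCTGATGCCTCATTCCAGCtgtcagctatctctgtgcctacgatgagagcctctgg
Aire, in all 4 libraries, chr10:78043561-78043860, minus strand: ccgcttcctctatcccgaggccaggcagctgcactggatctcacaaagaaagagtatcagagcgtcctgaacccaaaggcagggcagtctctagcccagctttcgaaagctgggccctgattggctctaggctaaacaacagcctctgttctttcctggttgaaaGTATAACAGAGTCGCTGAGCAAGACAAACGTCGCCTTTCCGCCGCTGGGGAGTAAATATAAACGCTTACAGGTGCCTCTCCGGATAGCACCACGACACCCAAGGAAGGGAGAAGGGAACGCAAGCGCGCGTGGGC
The covered stretch was 125 bases at Pnpla6, 107 at Zfp952, 60 at Cald1, 112 at Trpv3 and 135 at Aire. CpG dinucleotides numbered 16 in the Pnpla6 window and 16 in that of Aire, with 10 at Zfp952, 6 at Cald1 and 4 at Trpv3.

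Over all 32619 such windows, 748 (2.29%) had a peak in both knockouts and no wild-type peak within 1000 bp of the start, 6 (0.0184%) showed the reverse and 9905 had a peak in all 4 libraries. The gained windows held a median of 10 CpG and 56.3% G and C, the shared windows 23 CpG and 62.7%, and windows with no peak in any library 3 CpG and 47.7%. Exact letters were searched on both strands, and matches of different motifs could overlap. The ETS motif CCGGAAGT was in 0.936% of gained, 10.3% of shared and 3.91% of all windows. The AP-1 motif TGANTCA was in 9.09%, 4.15% and 7.85%, the CTCF core AGNGGGCGC in 4.55%, 5.89% and 2.90% and the RUNX motif TGTGGTT in 4.68%, 3.01% and 5.29%. The NF-kB motif GGACTTTCC was in 0.668%, 0.485% and 0.346%, and the E-box CANNTG in 70.7%, 60.5% and 72.3%. Windows with no peak in any library held the AP-1 motif in 9.93% of cases. The 87 windows gained at equal length held it in 5.75%, below the share of all windows. These are descriptions of the windows and were not tested.

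Long genes collected the most gained regions. With all peaks 7397 genes (34.2%) held at least 1 gained region within the gene or 1000 bp of it. The kinase gene Prkca held 24 over 411 kb, Ptprn2 23, the polarity gene Pard3b 21, Wwox and Auts2 20 each, and Gse1, the synaptic gene Syt1 and Cntnap2 19 each. The shortest of the first 10, Gse1, spans 353 kb. Over all genes there were 13.9 gained regions per Mb of gene. Among the genes named here the rate ran from 0.848 per 100 kb at Cntnap2 to 5.85 per 100 kb at Prkca. These are per 100 kb and not per Mb. On the same scale Cntnap2 lay below the rate over all genes and the others, picked for their counts, lay above it. Prkca had 3 shared regions and Gse1 had 12. At equal length the synaptic scaffold gene Shank2 led with 6 gained regions, with folds of 5.25 to 8.02 in knockout 1 and 5.10 to 8.21 in knockout 2. Nfia followed with 5, and Fancc, a DNA repair gene, with 4, of which chr13:63365419-63365695 had folds of 7.66 and 12.7. None of these regions had a peak in the full wild-type lists. At equal length the rate over all genes was 1.93 gained regions per Mb, and that of Shank2 was 1.34 per 100 kb. On the same scale Shank2, picked for its count, thus lay above the rate over all genes.

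At equal length 1046 genes held a lost region, and 224 of them also held a gained one. Sfi1 held 7 lost regions. Ecpas, the germ cell gene Tex14, Ttc6, the RNA-binding Msi2 and the ankyrin gene Ank3 held 3 each, and Foxa1, Tor3a, Lgals9 and Ovol2 held 2 each. Foxa1 and Ovol2 encode transcription factors of epithelial cells. The 2 regions at Foxa1, which it shares with its neighbour Ttc6, were chr12:57545734-57546066 and chr12:57546657-57546976. The second had folds of 3.97 and 3.89 at ranks 21799 and 25215 in the wild types and of 3.76 and 4.49 at ranks 49936 and 34457 in the knockouts. All Foxa1, Tor3a, Lgals9 and Ovol2 regions had such lower-ranked peaks in both full knockout lists. At Tex14, chr11:87471634-87471880 had a fold of 12.1 at rank 124 in wild type 1 but 4.30 at rank 20343 in wild type 2, and rank 45481 in knockout 1.

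Shared regions were compared by their percentile among the 17528 shared peaks of each library. The fold of a shared peak was higher in the knockout lists, with medians of 7.39 and 8.07 against 5.30 and 5.49, and the peaks were wider (medians 303 and 333 bp against 211 and 219 bp), so ranks and not folds were set side by side. In 485 shared regions (2.77%) both knockouts stood at least 20 points above both wild types, and in 437 (2.49%) at least 20 points below. Those that stood higher lay near a gene end in 23.5% of cases and those that stood lower in 46.2%, against 49.0% of all shared regions. The widest such gaps were inside Rttn and at 92481 bp from Tbl1xr1, whose region had percentiles of 81.7 and 89.1 against 15.8 and 28.0. Among the 15 widest, Birc3, Csf2 and Tert were picked out after their values were seen. They were regions 24462 bp from Birc3, an apoptosis inhibitor of the NF-kB pathway (chr9:7897668-7897800, percentiles 96.3 and 93.1 against 42.4 and 39.8), 7213 bp from the cytokine gene Csf2 (chr11:54257113-54257272, 59.7 and 56.5 against 6.42 and 3.58) and inside the telomerase gene Tert (chr13:73646816-73646944, 77.5 and 77.5 against 21.2 and 29.8). The widest gap in either direction was a fall in rank inside Fbxw4, chr19:45650078-45650215, at percentiles 12.6 and 6.36 in the knockouts and 99.3 and 94.7 in the wild types. A region inside Magi2 (chr5:20443475-20443580, 39.6 and 33.2 against 99.3 and 95.6) also stood lower.

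Gene lists were read by counts only, against 62.2% of all genes with a peak in the knockouts on average and 51.6% in the wild types. Of all genes, 5.21% were gained and 0.0277% lost with all peaks. At equal length 0.781% were gained and 1.55% lost. The list of 22 Aire-dependent tissue antigens had the fewest open genes in the wild types, 0 in wild type 1 and 1 in wild type 2, and 5 and 10 in the knockouts. Gained were Chrna1 of the muscle acetylcholine receptor (folds 4.35 and 5.93), the neuropeptide gene Npy (3.10 and 3.19), the fatty acid binding protein gene Fabp9 (3.85 and 4.53) and the potassium channel gene Kcnj5 (3.62 and 3.87). These 4 are 18.2% of the list against 5.21% of all genes. The bases are unlike, because a gene with a wild-type peak cannot be gained. Of the 21631 genes, 11172 and 11164 had such a peak in wild types 1 and 2, against 0 and 1 of this list. Other lists had larger shares: 3 of 12 Fezf2-dependent or AIRE-independent antigens, 3 of 14 dendritic cell and macrophage genes (21.4%), 3 of 14 corneocyte-like genes (21.4%) and 4 of 21 muscle genes were gained. Among the 4 gained genes of the Aire-dependent list the best rank was 23249, by Chrna1 in knockout 2. The insulin genes Ins1 and Ins2, the gastric mucin gene Muc6, and Tff3, Ppy and Sst had no peak in any library. At equal length the list had 0 and 2 open genes in the knockouts and 0 and 1 in the wild types, and none was gained or lost.

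Antigens that depend on Fezf2 or not on AIRE gave 8 and 10 of 12 in the knockouts against 5 and 3. Gained were Fabp7, the calcium-binding protein gene Calb1 and the casein gene Csn2, and Fabp7 (folds 4.87 and 5.75) was gained at equal length also. Muscle genes gave 10 and 12 of 21 against 5 and 5, with the troponin genes Tnnt3 and Tnnc1, the myosin gene Myh3 and Cacng1 gained. Pancreas, gut and liver genes gave 8 and 10 of 25 against 4 and 5, with Ptf1a, which sets pancreatic fate, the protease gene Ctrb1 and the villin gene Vil1 gained. Nervous system and eye genes gave 11 and 12 of 25 in the knockouts and 12 and 11 in the wild types, with Rgr gained and Glrb lost. At equal length no member of the muscle or the pancreas, gut and liver list was gained or lost.

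Genes of antigen presentation, NF-kB signalling and the AIRE complex were mostly open in both groups. Antigen presentation genes gave 16 and 16 of 18 in the knockouts against 12 and 13, with the class II modulator gene H2-Oa (folds 5.84 and 5.64), the costimulator Cd86 and the inhibitory ligand gene Pdcd1lg2 gained. These 3 are 16.7% of the list, against 5.21% of all genes. H2-Oa was gained at equal length too, 5.56% of the list against 0.781% of all genes. Pax1, a regulator of the thymic epithelium, was gained in both settings, with folds of 7.05 and 7.20 at ranks 13371 and 15715. Those peaks lay 2403 and 2379 bp from the annotated start. Pax1 also had a peak in 3 of the 4 other wild types and in all 4 C313Y and C442G libraries. Trp63, which maintains epithelial progenitors, was lost at equal length only, with ranks of 29564 and 26597 in the wild types and 57122 and 76584 in the full knockout lists. Of 14 genes of corneocyte-like cells, which follow the Aire stage, 9 and 9 had a peak in the knockouts and 4 and 6 in the wild types. Grhl3, Krtdap and Dsg1a were gained with all peaks, and Krt1 and Lor, the loricrin gene, were lost at equal length, where the counts turned to 3 and 2 against 4 and 6. NF-kB and TNF receptor signalling genes gave 22 and 22 of 23 against 22 and 21, with 0 gained and 0 lost. Reported AIRE partners gave 21 and 21 of 22 against 20 and 20, with Xrcc6 (Ku70) gained in both settings (folds 7.80 and 5.70). Xrcc6 alone is 4.55% of its list, against 5.21% of all genes with all peaks and 0.781% at equal length.

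The list of 24 sphingolipid and lipid genes, drawn up with S1pr4, Slc27a1, Pnpla6 and Elovl1 already known to be gained, is no independent evidence. It gave 22 and 20 open genes in the knockouts against 15 and 12. With all peaks 5 were gained (20.8%, against 5.21% of all genes), and at equal length 4 (16.7%, against 0.781%). In 3 of them, S1pr4, Slc27a1 and Elovl1, the wild types had a peak in the same region, as described above. Among markers of other cells, Clec9a of cross-presenting dendritic cells was gained in both settings (folds 6.56 and 7.00, ranks 16074 and 18552). Zbtb46, Cd68, Cd4, Lat, the B cell gene Vpreb3, the fibroblast gene Fbn1, the cortical gene Enpep and the tuft cell genes Trpm5 and L1cam were gained with all peaks only. The constitutively expressed genes Rpl19 and Ywhaz were gained in the same way, with folds of 3.70 and 3.48 at Rpl19 and 4.90 and 3.47 at Ywhaz.

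**Figure D5:**
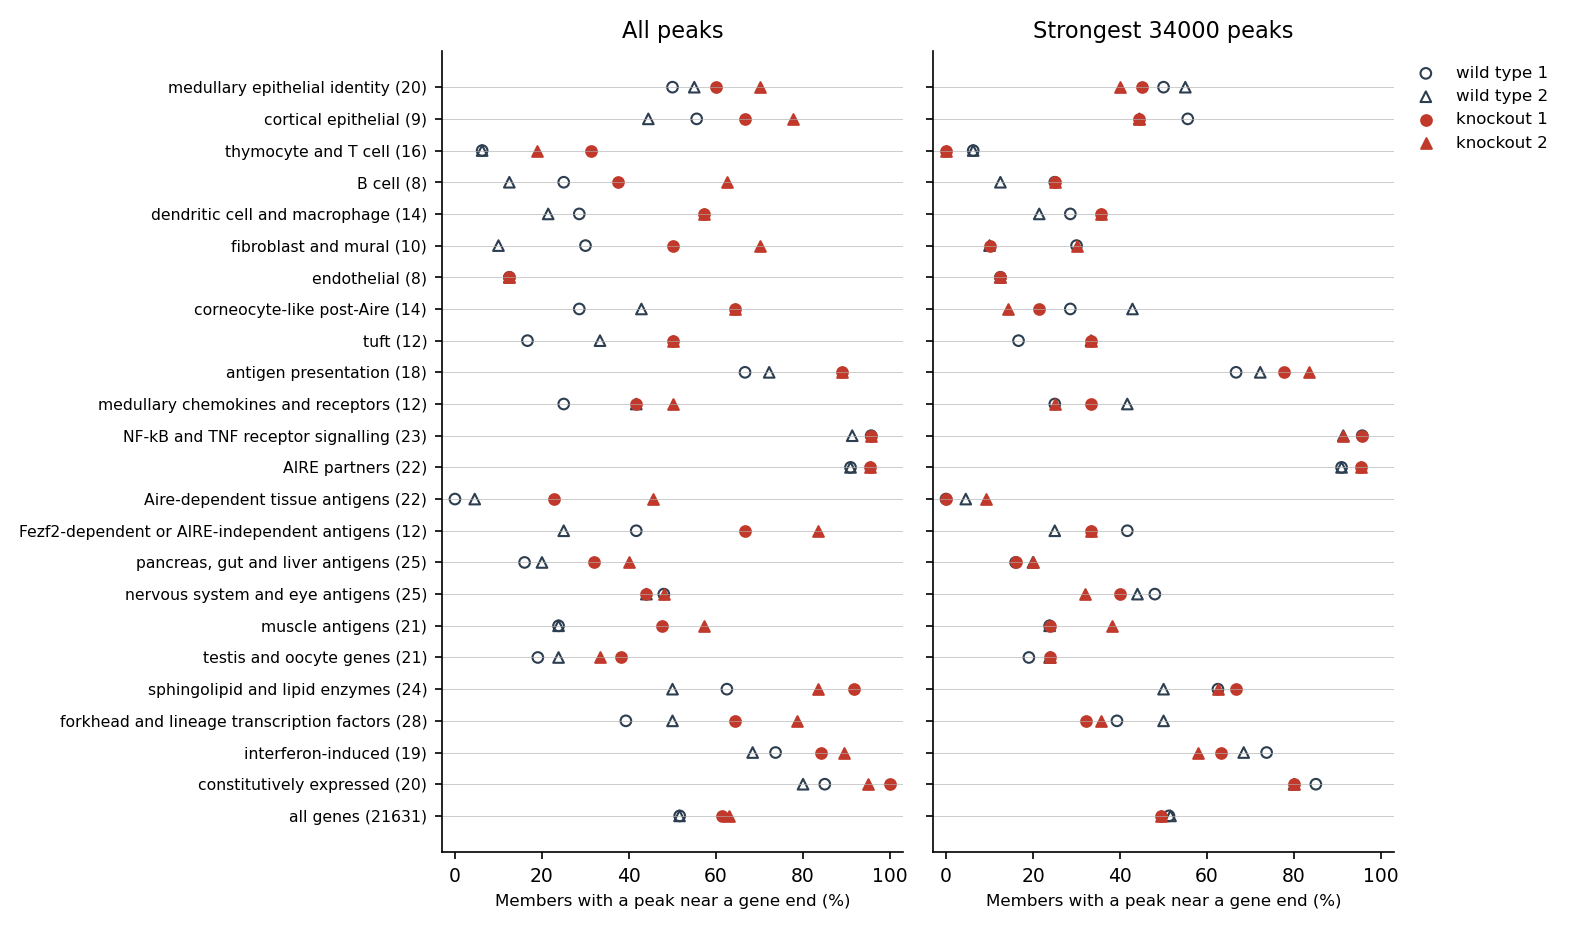
Percentage of each gene list with a peak within 1000 bp of a gene end (x axis), for each list with its number of genes (y axis), in the wild types (open symbols) and the knockouts (filled red), with all peaks and with the 34000 strongest. With all peaks the knockouts lie above the wild types in most lists, for all genes at 62.2% and 51.6% on average. With equal lists 10677 and 10701 of all genes had a peak in the knockouts and 11084 and 11161 in the wild types.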

How the data were processed

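ATAC-seq peak lists of 2 Aire -/- and 2 Aire +/+ libraries of sorted mTEChi were used, called per sample. Tools listed in the submitters' processing notes, without versions or order, are MACS2, Picard, Bowtie2 and cutadapt, and the build is mm10. Read shifting, duplicate handling and use of a control were not given in the sources used here. Per peak the authors deposited a score, a fold enrichment (a ratio), and −log10 p and −log10 q. The deposited score was used for no call. Depth is unknown. Ranks follow −log10 p. Genes are the 21631 protein-coding genes of RefSeq on GRCm38.p6, which shares coordinates with mm10, and promoter windows come from the same source. They cover 79.9% of these genes and none on chromosome 18. Exons and introns were not told apart. Per-library values were compared by exact permutation tests, and calls were counted without a test. The members and gene lists were chosen with earlier results of these data known. Named genes were Aire, all genes lost with all peaks, the gained and lost genes and regions of highest rank, the genes with most such regions, and list members gained or lost. Some genes that this rule selected are not reported here. Counting was tested on simulated lists. The results were recomputed with only peaks whose −log10 q reached 3, with lists of 10000 and 20000 peaks, ranking by fold, 50% coverage of a region, gene windows of 500 and 2500 bp, each library left out and a replicate block. Calls without any peak of the other group in the region, calls at starts only, a 500 bp margin and the ranks of shared regions were chosen after seeing the data. Python 3.11.15, numpy 2.4.6 and pandas 2.3.3 were used.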

Additional observations from a re-analysis of the deposited data

How the results depend on the processing

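Over the alternatives run, more regions were gained than lost except at equal list length without either wild type and among the 1000 strongest peaks (101 and 102). More genes were gained than lost with all peaks, and fewer at equal length except among the 1000 strongest peaks (91 and 68). With a −log10 q of at least 3, 14575 regions were gained and 39 lost with all peaks, and 3 genes were lost. With 50% coverage 161 regions were lost with all peaks and 6638 gained at equal length. The 10000 strongest peaks gave 736 regions gained and 581 lost, and the 20000 strongest 1671 and 1104. A gene window of 500 bp gave 10 genes lost with all peaks. Calls at starts only, chosen after seeing the data, gave 735 genes gained with all peaks and 86 at equal length. Calls without any peak of the other group in the region, also added later, gave 1091 and 151.

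Every omission of a library loosens the rule that both libraries of a group must agree. With all peaks it gave 31857 to 58001 regions gained, 198 to 4937 lost, 1568 to 1851 genes gained and 15 to 98 lost. At equal length it gave 6337 to 7962 regions gained, 2662 to 9488 lost, 323 to 434 genes gained and 562 to 777 lost. Without wild type 1 there were 6337 regions gained and 8830 lost, and without wild type 2 there were 6591 and 9488, so the larger class changed sides. The log2 difference in median width was −0.0829 at the lowest and 0.066 at the highest (0.03 without knockout 1, 0.066 without wild type 2) and had no stable sign. With a replicate block, the pairs of equal number differed in log2 peak number by 1.31 and 1.48 (mean 1.39, exact permutation p = 0.5, the smallest possible). Nothing says that the numbers pair the samples, and the block changed no call.

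Depth is unknown, so gains with all peaks and the greater length of the knockout lists cannot be told apart, and at equal length the weakest kept peaks differed in strength between the groups.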
